A study of Mus musculus with 18 samples.

Results

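The 10 genes described here are markers of T cells and natural killer (NK) cells: Cd3d, Cd3e, Cd3g, Cd2, Cd4, Cd6, Cd8a, Il7r, Lck and Prf1. They were taken as a list of gene names and were located on the array through the platform annotation, which names probes for 14422 genes. Of the 10 genes, 7 had a probe named for them, with 15 probes in all, and Cd2, Cd8a and Lck were not analysed here. After a filter on detection, 6 of the 7 could be tested in fat (11 probes) and 5 in liver (6 probes). Cd4 passed in neither tissue, and Cd6 passed in fat alone.

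The study fed male C57BL/6J mice 1 of 3 diets for 16 weeks, after arrival at 4 weeks of age and 1 week of acclimation, and measured RNA of liver and epididymal fat on Illumina mouse bead arrays. The LU group received the high-fat diet with 0.005% luteolin by weight, a plant flavonoid, and the HFD group received that high-fat diet alone, with 20% fat and 1% cholesterol. The ND group received the normal diet. Of the 36 mice fed (13 LU, 13 HFD and 10 ND), each diet is represented by 3 arrays of each tissue, 18 arrays in all. All 3 groups were of the same strain and sex, and all arrays were made from whole tissue. Whether the 3 arrays of a group stand for 3 animals is not stated in the labels. The p-values therefore reflect the spread among these arrays alone, which may be technical, and 3 arrays a group is what limits precision.

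T cells recognise antigen through the T cell receptor, which cannot signal alone and passes its signal into the cell through the CD3 chains. CD4 and CD8 are its co-receptors, LCK is the kinase that starts the signal, CD2 and CD6 are adhesion and costimulatory receptors of T cells, and IL7R is the alpha chain of the receptor through which interleukin 7 keeps resting T cells alive. Perforin, the product of Prf1, forms pores in the target membranes of cytotoxic T cells and NK cells. T cells reside in fat and liver beside macrophages and other leukocytes, and in whole-tissue RNA fewer cells of a type and less RNA per cell cannot be told apart.

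The genes of the CD3 chains lie together on chromosome 9 of the mouse genome (GRCm38.p6). Cd3g (chr9:44969572-44980431) and Cd3d (chr9:44981769-44987052) are 1337 bases apart, Cd3d and Cd3e (chr9:44998735-45009663) are 11682 bases apart, and the cluster spans 40092 bases. Il7r lies on chromosome 15 (chr15:9506159-9529941). Promoter sequences from RefSeq are shown for these genes because the CD3 genes are neighbours that followed each other over the fat arrays, and Il7r had the largest diet difference. Each sequence runs 5′ to 3′ on the strand of the gene, with 250 bases before and 50 bases after the annotated start. Capitals mark matches to GGAAGT or its reverse complement ACTTCC, a motif of the ETS family of transcription factors, searched on both strands.
Il7r, minus strand, chr15:9529827-9530126: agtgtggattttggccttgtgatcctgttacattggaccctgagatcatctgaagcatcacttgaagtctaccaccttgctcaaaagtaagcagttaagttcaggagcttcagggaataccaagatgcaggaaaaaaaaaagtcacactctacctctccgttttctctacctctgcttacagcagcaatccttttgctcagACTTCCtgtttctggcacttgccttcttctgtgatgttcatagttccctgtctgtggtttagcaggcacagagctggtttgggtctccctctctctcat
Cd3d, plus strand, chr9:44981536-44981835: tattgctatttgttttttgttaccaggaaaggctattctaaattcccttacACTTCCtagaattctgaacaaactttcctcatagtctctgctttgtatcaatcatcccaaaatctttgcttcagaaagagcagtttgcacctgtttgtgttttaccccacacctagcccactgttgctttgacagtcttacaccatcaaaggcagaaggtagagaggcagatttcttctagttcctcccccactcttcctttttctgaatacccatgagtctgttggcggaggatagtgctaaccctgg
Cd3e, minus strand, chr9:45009562-45009861: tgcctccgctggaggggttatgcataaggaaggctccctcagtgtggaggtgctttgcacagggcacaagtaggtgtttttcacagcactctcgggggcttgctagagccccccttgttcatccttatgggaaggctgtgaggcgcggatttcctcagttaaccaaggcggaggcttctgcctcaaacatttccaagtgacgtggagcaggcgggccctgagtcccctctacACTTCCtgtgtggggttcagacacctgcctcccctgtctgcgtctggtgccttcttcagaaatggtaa
Cd3g, minus strand, chr9:44980382-44980681: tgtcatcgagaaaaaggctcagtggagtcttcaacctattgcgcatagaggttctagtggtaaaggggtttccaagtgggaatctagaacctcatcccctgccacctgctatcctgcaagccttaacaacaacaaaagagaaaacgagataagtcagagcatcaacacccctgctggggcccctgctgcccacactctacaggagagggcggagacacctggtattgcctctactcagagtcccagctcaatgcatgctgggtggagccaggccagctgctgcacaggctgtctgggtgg
The match began at position -49 from the start in Il7r, at -18 in Cd3e and at -199 in Cd3d, and these letters were not in the Cd3g window. The motif stood in 23.8% of the 32851 promoters of the same length, so a match is common, and it is a description of the letters only. None of the 4 windows held TATAAA on either strand, which 13.6% of all promoters do.

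Signal intensities below are the values as deposited, on a linear scale with the array's background left in. Median signals were 193.5 to 215.8 in fat and 150 to 159.7 in liver. A probe counts as detected on an array where the deposited detection p-value is under 0.05. Differences were computed after background correction, quantile normalization and log2 transformation, and a gene was called where limma's moderated test gave a Benjamini-Hochberg adjusted p under 0.05 over all genes tested, 10240 in fat and 8937 in liver. Arrays of 1 diet and tissue correlated at 0.992 to 0.9976 in fat and 0.9935 to 0.996 in liver over the genes tested. Tissue markers matched the labels: all 9 adipocyte markers with a probe were detected in fat, against 4 in liver, where Adipoq, Plin1, Fabp4, Lep and Retn were not. Of 12 hepatocyte markers, 2 were detected in fat, where Alb and Apoa1 were not, and 10 in liver.

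In fat, the marker genes did not change as a block. Under HFD, Il7r and Cd6 rose against ND while the 3 CD3 genes did not pass the test. With luteolin added, Il7r, Cd6, Cd3d and Cd3g fell against HFD and Prf1 rose. Against ND, LU fat still had more Il7r and had less Cd3d and Cd3g. The counts were 3 of 6 genes called between HFD and ND (2 higher, 1 lower), where 45.4% of all genes were called, 5 of 6 between LU and HFD (1 higher, 4 lower), against 31.8% of all genes, and 3 of 6 between LU and ND (1 higher, 2 lower), against 33.3% of all genes. The HFD and ND count is close to that of all genes.

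**Figure D1:**
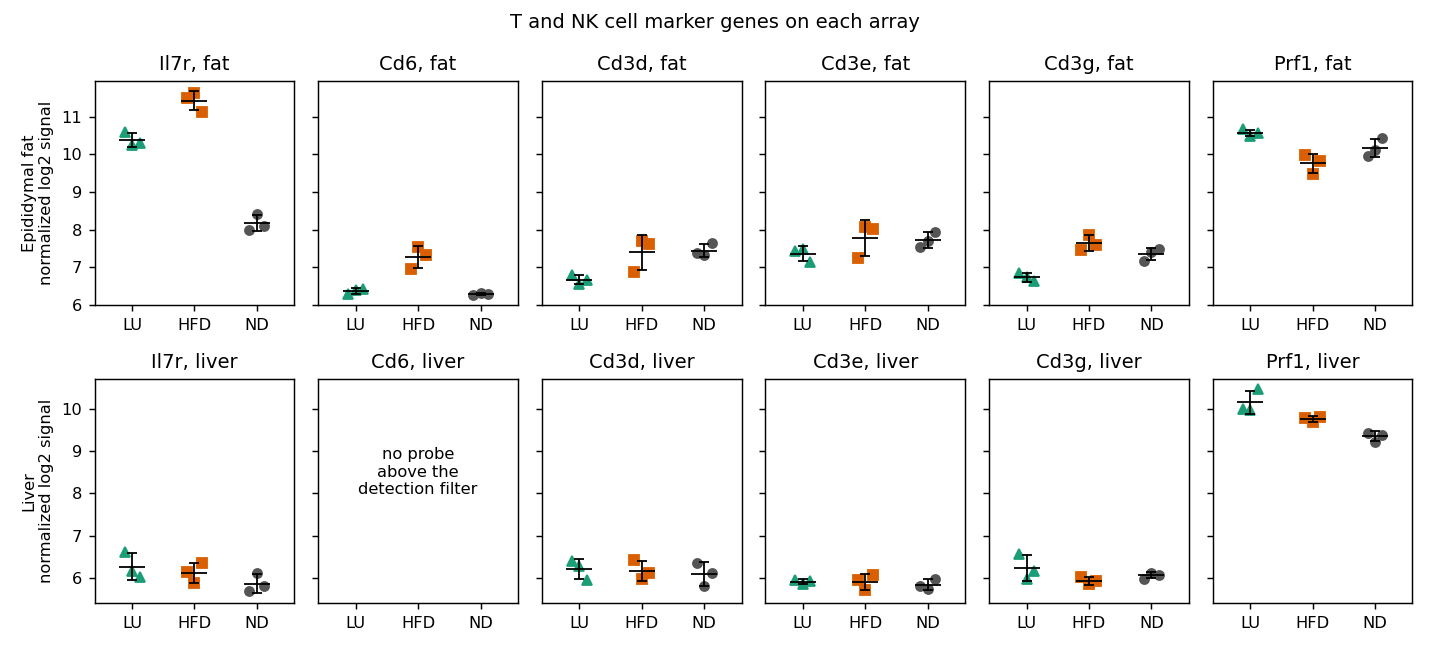
Normalized log2 signal of each tested marker gene on each array, in epididymal fat (top) and liver (bottom), with LU, HFD and ND from left to right; points are the 3 arrays of a group, the bar is their mean and the whisker 1 SD. Il7r in fat is the gene with the widest gap between diets, and the rows of the CD3 genes in liver are flat.

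The CD3 chains carry the signal of the T cell receptor. For Cd3d, fat signals were 264.3, 249.5 and 246.5 on the LU arrays, 284.5, 389.5 and 359.5 on the HFD arrays, and 304.5, 327.1 and 355.2 on the ND arrays. All LU arrays lay below all arrays of the other diets, and HFD arrays lay on both sides of the ND range, with HFD array 1 lowest. Cd3d fell in LU fat by 0.72 ± 0.20 against HFD (log2 difference ± SE, n = 3 each, limma adjusted p = 0.022) and by 0.77 ± 0.20 against ND (adjusted p = 0.0159), while HFD differed from ND by -0.05 ± 0.20 (adjusted p = 0.86; 95% interval -0.49 to 0.39). The Cd3d call against HFD was lost without HFD array 2 (adjusted p = 0.0776), HFD array 3 (0.0687), LU array 2 (0.0753) or LU array 3 (0.0603), and the call against ND without LU array 2 (0.0556). Both Cd3d calls held at smaller sizes without background correction, at -0.32 against HFD and -0.34 against ND.

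Cd3g signals in fat were 268.4, 263 and 243.8 on the LU arrays, 345.1, 416.2 and 355.5 on the HFD arrays, and 284.7, 337.6 and 335.3 on the ND arrays. LU again lay below every array of the other diets. Cd3g fell in LU by 0.90 ± 0.12 against HFD (adjusted p = 0.00102) and by 0.62 ± 0.12 against ND (adjusted p = 0.00444). The difference of HFD from ND was 0.29 ± 0.12 (adjusted p = 0.0776), with overlapping arrays, and this difference passed without HFD array 1 (adjusted p = 0.0412). Without background correction, Cd3g differed by -0.41 for LU against HFD and by -0.27 for LU against ND, both past the test.

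Cd3e was measured by 2 probes in fat. The brighter, ILMN_1238847, read 327, 342.6 and 282.5 on the LU arrays, 320.7, 452 and 422.6 on the HFD arrays, and 322.9, 377.2 and 402.3 on the ND arrays. The LU and HFD arrays overlapped through HFD array 1, which was the lowest HFD array for Cd3d, Cd3g and Cd6 as well. The differences were -0.42 ± 0.21 for LU against HFD (adjusted p = 0.162), -0.37 ± 0.21 for LU against ND (adjusted p = 0.21) and 0.05 ± 0.21 for HFD against ND (adjusted p = 0.86). Without HFD array 1 the Cd3e difference of LU from HFD passed (adjusted p = 0.0118). The second probe, ILMN_2784580, passed for LU against HFD, with a difference of -0.46 ± 0.13 (adjusted p over probes = 0.0307). At the level of single probes 27.2% of 19549 fat probes passed in that comparison.

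CD4, the co-receptor of helper T cells, had 1 probe, and it was not detected on any of the 18 arrays. Its fat signals were 174.2 to 188.4 in LU, 177.2 to 230.1 in HFD and 190 to 210 in ND, and its liver signals were 150.7 to 159.9 in LU, 154.4 to 162 in HFD and 153.2 to 154.4 in ND. All of these readings lay near the background of their tissue, so no difference in Cd4 was detectable here.

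CD6 is a surface receptor of T cells that binds ligands on other cells. The Cd6 probe used for the gene in fat, ILMN_2769330, read 229.3, 240.1 and 231.1 on the LU arrays, 292.2, 365.1 and 325.8 on the HFD arrays, and 222.7, 242.4 and 237.6 on the ND arrays. The HFD arrays stood above all others, and the LU and ND arrays overlapped. Cd6 rose under HFD by 0.97 ± 0.13 against ND (adjusted p = 0.000263) and fell in LU by 0.90 ± 0.13 against HFD (adjusted p = 0.00134). LU differed from ND by 0.08 ± 0.13 (adjusted p = 0.672; 95% interval -0.21 to 0.36). Without background correction the Cd6 differences were 0.39 for HFD against ND and -0.36 for LU against HFD, and both passed. A pair of further Cd6 probes had differences of HFD from ND of 1.07 and 0.65, both past the test over probes, where 37.5% of all fat probes passed. For LU against HFD they gave -0.56 (adjusted p over probes = 0.0515) and -0.62 (0.00945). Both were detected on 2 of 3 ND arrays, so they entered the test only through HFD and LU. Their p-values against ND are therefore not independent of the detection filter. The Cd6 probe ILMN_3042812 was not detected on any array.

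Il7r had the largest diet difference of the marker genes. Its brightest probe, ILMN_2680827, read 1663, 1416 and 1309 on the LU fat arrays, 3068, 3588 and 2389 on the HFD fat arrays, and 388.6, 517.6 and 430.1 on the ND fat arrays. The 3 diets did not overlap, with LU between HFD and ND. Il7r rose 9.49-fold under HFD against ND, a log2 difference of 3.25 ± 0.15 (adjusted p = 8.49e-07). It fell in LU by 1.04 ± 0.15 on the log2 scale against HFD (adjusted p = 0.00157), a 2.05-fold lower level. LU fat stayed 4.63-fold above ND, with a log2 difference of 2.21 ± 0.15 (adjusted p = 2.08e-05). All 3 Il7r calls held under each of the 19 alternatives run.

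The other tested Il7r probes in fat had the same order of diets at lower signals. ILMN_2659739 read 280.7, 268.9 and 268.5 in LU, 512.8, 507 and 431.9 in HFD, and 204.4, 210.2 and 207.8 in ND, where it was not detected on any array. It was at least 4.61-fold higher in HFD than in ND (adjusted p over probes = 8.59e-07) and at least 1.82-fold higher in LU than in ND (0.000118). These bounds set each ND value no lower than the lowest signal that is detected on its array. LU differed from HFD by -1.34 ± 0.10 on this probe (adjusted p over probes = 0.000318). ILMN_1237567 read 266.3, 264.3 and 241.7 in LU, 325.2, 328.7 and 280.9 in HFD, and 209.8, 227.9 and 220.3 in ND, where it was detected on 1 of 3 arrays. Its differences were 1.11 ± 0.12 for HFD against ND, -0.40 ± 0.12 for LU against HFD and 0.71 ± 0.12 for LU against ND, all past the test. ILMN_2659739 and ILMN_1237567 entered the test only through HFD and LU, where they are high. Their p-values against ND are therefore not independent of the detection filter. For LU against ND 29% of all fat probes passed. The tested probes thus gave different sizes of the same change, 1.11 to 3.25 for HFD against ND. Il7r probe ILMN_1255750 missed the detection filter, had LU and ND arrays that overlapped, and is given further below.

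**Figure D2:**
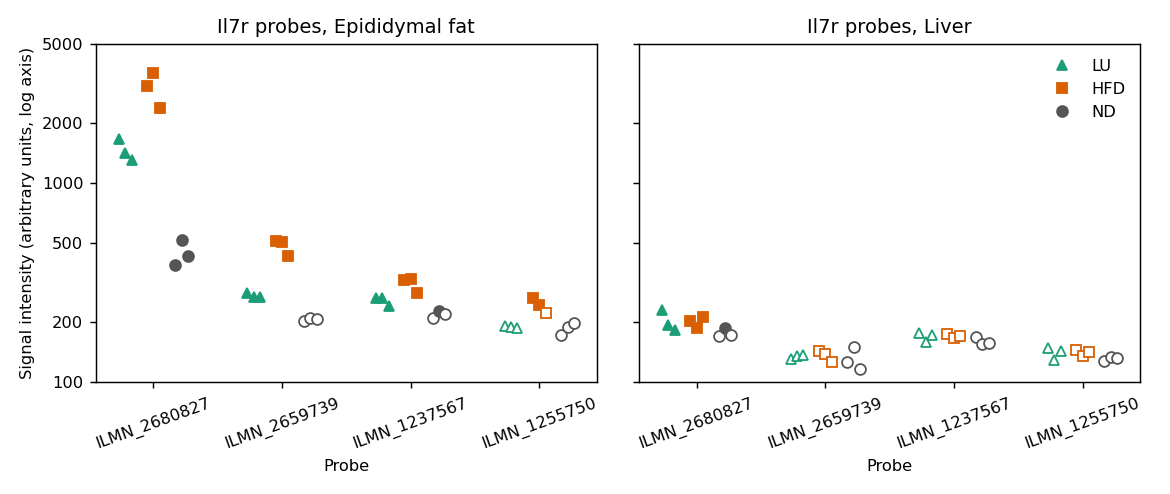
Deposited signal (log axis, arbitrary units) of the 4 Il7r probes on each array of fat (left) and liver (right), with LU, HFD and ND from left to right within a probe; filled symbols are detected and open symbols are not. In fat the 3 tested probes share the order HFD, LU, ND, and in liver ILMN_2680827 is the only probe detected on any array.

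Perforin is stored in the granules of cytotoxic cells. Its bright probe, ILMN_2960700, read 1737, 1644 and 1532 on the LU fat arrays, 1193, 930.5 and 1063 on the HFD fat arrays, and 1082, 1315 and 1539 on the ND fat arrays. LU was highest, HFD overlapped ND, and the ND arrays were widely spread. Prf1 rose in LU by 0.80 ± 0.14 against HFD (adjusted p = 0.00356), the opposite direction to Il7r, Cd6, Cd3d and Cd3g. HFD differed from ND by -0.40 ± 0.14 (adjusted p = 0.0482), and this call was lost under 11 of 19 alternatives, among them without ND array 2 (0.0777) or 3 (0.152), HFD array 2 (0.167) or 3 (0.0737), or LU array 1 (0.0641), 2 (0.0647) or 3 (0.0685).

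For Prf1, LU differed from ND in fat by 0.41 ± 0.14 (adjusted p = 0.0548), and 8 of 19 alternatives passed it, among them those without ND array 3 (adjusted p = 0.0195), HFD array 1 (0.047) or HFD array 2 (0.0328). The other Prf1 probe, ILMN_1228333, read 166.4 to 207.6 in fat and was not detected on any fat array, so the values of Prf1 rest on 1 probe. In liver it was detected on 1 LU array.

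Set side by side, the brightest Il7r probe, ILMN_2680827, changed more than the other marker genes under HFD. Its change between HFD and ND in fat exceeded that of Cd3d by 3.30, of Cd3e by 3.19, of Cd3g by 2.96, of Cd6 by 2.27 and of Prf1 by 3.64 on the log2 scale. In each of these the arrays did not overlap (exact permutation test, two-sided, p = 0.1, the smallest that 3 against 3 arrays allow). Between LU and HFD the change of Il7r differed from that of the CD3 genes and Cd6 by -0.62 to -0.13, with overlapping arrays (exact p = 0.3 to 0.7), and from that of Prf1 by -1.84 (exact p = 0.1). Of the 15 such differences computed, none could reach 0.05 in this design. The sizes belong to that probe: on ILMN_1237567 the change of Il7r between HFD and ND was 1.11, close to the 0.65 to 1.07 of the 3 Cd6 probes. HFD array 1, low for the CD3 genes and Cd6, was not the lowest HFD array for Il7r.

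**Figure D3:**
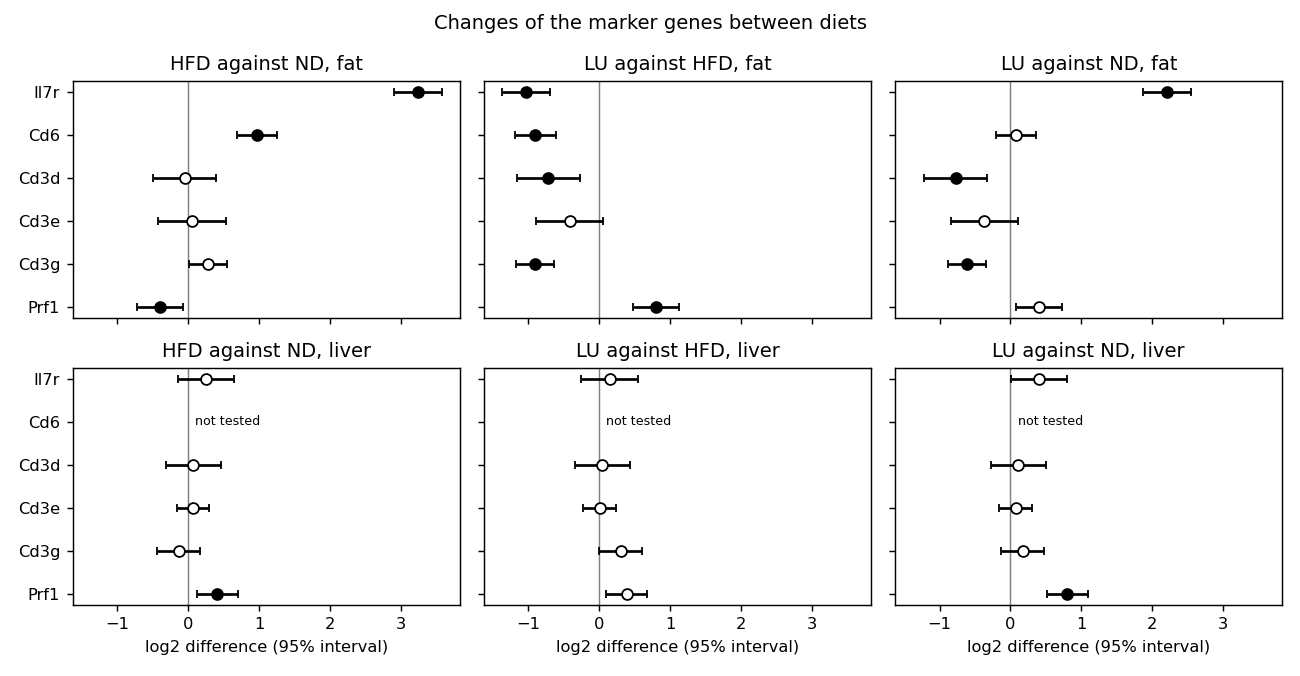
Log2 difference of each marker gene with its 95% interval (x axis), with HFD over ND on the left, LU over HFD in the middle and LU over ND on the right, in fat (top) and liver (bottom); filled points passed the test and Cd6 was not tested in liver. Il7r, read from ILMN_2680827, at 3.25 stands apart in HFD against ND in fat, and in LU against HFD in fat Prf1 alone lies to the right of 0.

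Across the 9 fat arrays, which fall into 3 diets and so share the diet differences, the CD3 genes followed each other. The Pearson coefficient was 0.875 for Cd3d with Cd3e, 0.857 for Cd3d with Cd3g and 0.757 for Cd3e with Cd3g. Il7r was near 0 with them, at -0.219 with Cd3d, -0.0599 with Cd3e and 0.124 with Cd3g, and reached 0.743 with Cd6. Prf1 was at -0.838 with Cd3g and -0.788 with Cd6. In liver, where the CD3 genes lay close to background, the pairs ranged over 0.146 to 0.615. The 5 genes most like Cd3e over the fat arrays were Ets1, a transcription factor of lymphocytes, at 0.9254, Cand2 at 0.907, Rbsn at 0.9041, Ube2v1 at 0.9004 and Zap70, the kinase that binds the phosphorylated CD3 chains, at 0.8887, among 9952 genes compared. For Il7r, a comparison chosen after its values were seen, 734 of 9952 genes exceeded 0.9, led by Myo1f, a myosin of leukocytes, at 0.9976 and Rgs1 at 0.9971. Atf3 at 0.9966, Gas2l3 at 0.9965 and Lilrb4a at 0.9953 came next. In liver the genes most like Cd3e were Smpd4 at 0.9129, Mrtfb at 0.8827, Mon1a at 0.8771, Ftsj3 at 0.8706 and Usp33 at 0.8665, and Zap70 was not among them.

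Genes that act downstream of the T cell receptor were measured for 12 of 27 listed genes in fat. Under HFD 8 of the 12 rose against ND, none fell and 4 did not pass, a called share of 66.7% where 45.4% of all genes were called, with a median log2 difference of 0.60 beside -0.03 over all genes. The adaptor Fyb rose by 1.69 ± 0.11, the phosphatase Ptpn22 by 1.49 ± 0.11 and the exchange factor Vav1 by 1.32 ± 0.08, and the kinase Prkcq was at least 1.30-fold higher (adjusted p of the 4 at most 5.16e-05). Fyb, Ptpn22 and Vav1 are also used by myeloid cells. In LU fat 8 of the 12 fell against HFD, none rose and 4 did not pass, a called share of 66.7% beside 31.8% of all genes, with a median of -0.44 beside 0.02 over all genes. Fyb fell by 0.90, Ptpn22 by 0.69, the adaptor Lat by 0.66 and Vav1 by 0.62. Between LU and ND 6 rose, none fell and 6 did not pass, a called share of 50% beside 33.3% of all genes.

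Of the cytotoxic and NK cell genes, 5 of 22 listed could be measured in fat. Under HFD 2 rose against ND and 3 did not pass, a called share of 40% that is below the 45.4% of all genes. The chemokine Ccl5 rose by 0.59 ± 0.13 and the NK receptor chain Klrd1 by 0.30 ± 0.08. In LU 3 of 5 fell against HFD, with the NK receptor Klrb1c at -0.76 ± 0.21, Ccl5 at -0.47 ± 0.13 and Klrd1 at -0.34 ± 0.08, and 2 did not pass, a called share of 60% beside 31.8% of all genes. These 3 fell where Prf1 rose. Between LU and ND none of the 5 was called by limma, and none had an unadjusted p under 0.05.

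The interleukin 7 pathway and the cytokines that share the common gamma chain were split. Of 10 genes measured in fat, 4 rose under HFD against ND, 4 fell and 2 did not pass, a called share of 80% beside 45.4% of all genes, with a median of 0.04. Il7, the ligand of IL7R, rose by 0.54 ± 0.12. Jak1, the kinase that binds IL7R, fell by 0.84 ± 0.08, Il15ra, a chain of the interleukin 15 receptor, by 0.75 ± 0.09, and Cish, a target and inhibitor of STAT5 signalling, by 1.30 ± 0.36. In LU against HFD each of the first 3 turned the other way: Il7 fell by 0.46 ± 0.12, Jak1 rose by 0.53 ± 0.08 and Il15ra rose by 0.51 ± 0.09, and the remaining 7 genes did not pass. Between LU and ND 2 rose, 1 fell and 7 did not pass. The called share was 30% in both, close to the 31.8% and 33.3% of all genes.

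Among 6 measured markers of helper and regulatory T cells, Foxp3, the transcription factor of regulatory T cells, rose under HFD against ND by 0.47 ± 0.07, Rora fell by 0.41 ± 0.06 and 4 did not pass, a called share of 33.3% that is below the 45.4% of all genes. Between LU and HFD, Cxcr3, a chemokine receptor of activated T cells, fell by 0.68 ± 0.16 while the inhibitory receptor Lag3 rose by 0.62 ± 0.11 and the costimulatory receptor Tnfrsf4 by 0.36 ± 0.08, and 3 did not pass, a called share of 50% beside 31.8% of all genes. Between LU and ND 3 rose, 2 fell and 1 did not pass, a called share of 83.3% beside 33.3%. Of 4 naive T cell and lymph node genes, none rose under HFD and Klf2 fell by 0.60 ± 0.11 and Satb1 by 0.44 ± 0.10. In LU against HFD, Ccl21a, a lymph node chemokine, fell by 0.84 ± 0.28 and Satb1 rose by 0.36 ± 0.10. With 2 of the 4 called in each, the share was 50%, near the 45.4% of all genes between HFD and ND and above the 31.8% between LU and HFD.

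Markers of other leukocytes moved with the diets in fat, where 45.4% of all genes were called between HFD and ND and 31.8% between LU and HFD. All 15 pan-leukocyte genes rose under HFD against ND, with a median of 1.28, and 14 of 15 fell in LU against HFD, with a median of -0.62. Their summed level (background-corrected signal over the 15 genes) was 37560 to 40240 in LU, 51530 to 58310 in HFD and 23570 to 28780 in ND. Of 16 macrophage markers 13 rose and 1 fell under HFD against ND, and 15 fell in LU against HFD. The summed macrophage level was 38530 to 43590 in LU, 62710 to 69640 in HFD and 32720 to 37020 in ND. Of 4 B cell markers 3 rose under HFD against ND and 3 fell in LU against HFD, over summed levels of 365.5 to 384.9 in LU, 563.6 to 665.1 in HFD and 319.1 to 433.1 in ND. Of 12 dendritic cell markers 7 rose and 3 fell under HFD, with the integrin Itgax at least 3.16-fold higher, and 1 rose and 7 fell in LU against HFD. Of 8 neutrophil and mast cell markers 3 rose and 1 fell under HFD, and 5 fell in LU against HFD. All of these lists ran in the direction of Il7r and Cd6 between HFD and ND, on balance, while the CD3 genes did not pass the test there, and their part in the Il7r and Cd6 results was not tested. The naive T cell and lymph node genes, summed, were 7652 to 8170 in LU, 8271 to 10740 in HFD and 8915 to 13730 in ND, and no epididymis marker was detected in fat.

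Adipocyte markers moved the other way, on balance, by counts of genes and by medians. Of 9 measured in fat, 1 rose and 7 fell under HFD against ND, with a median of -0.37, and 4 rose and none fell in LU against HFD, with a median of 0.19. The called share was 88.9% beside 45.4% of all genes for HFD against ND. For LU against HFD it was 44.4% beside 31.8%. Lep, the satiety hormone leptin, was the one that rose under HFD, by 0.69 ± 0.10, while the hormone-sensitive lipase Lipe fell by 0.58 ± 0.10. Between LU and HFD the fatty acid carrier Fabp4 rose by 1.33 ± 0.15. The summed adipocyte level did not fall under HFD, at 171500 to 176400 in LU, 163600 to 172300 in HFD and 154400 to 168400 in ND. Its part in the marker gene results was not tested.

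**Figure D4:**
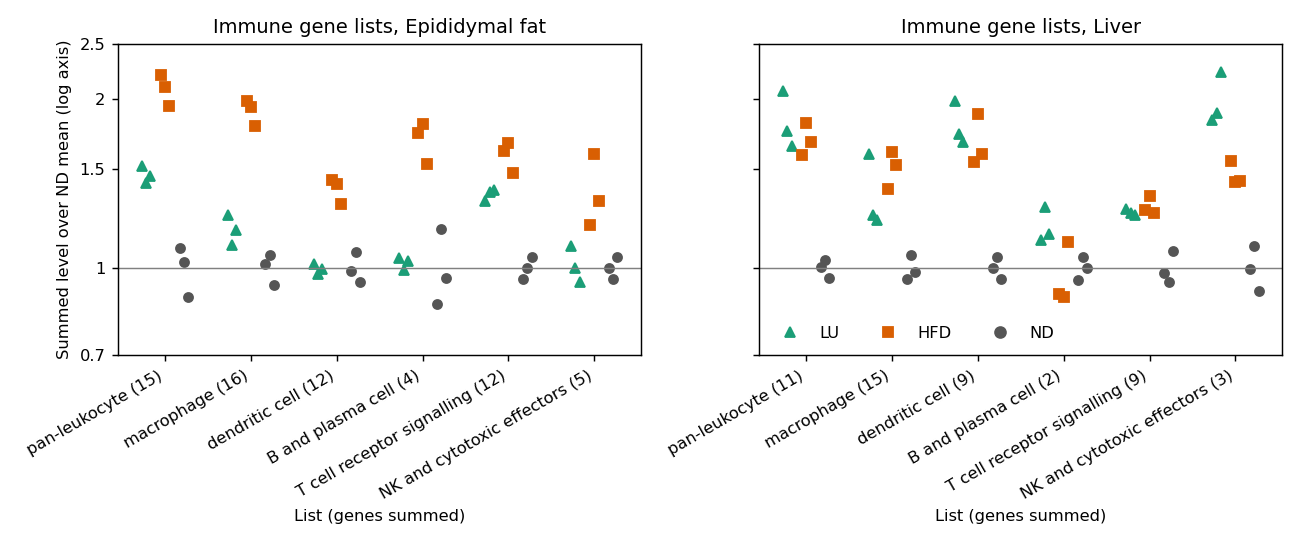
Summed background-corrected level of 6 immune gene lists on each array, divided by the mean of the 3 ND arrays (log axis), in fat (left) and liver (right), with LU, HFD and ND from left to right and the number of genes summed in brackets. In fat the pan-leukocyte and macrophage sums are highest in HFD, with LU between HFD and ND, and in liver the pan-leukocyte sums of LU and HFD overlap.

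In liver, Prf1 was the only marker gene called by diet in the main test, and its level followed the order LU, HFD, ND. Counts were 1 of 5 between HFD and ND, where 30.3% of all genes were called, 0 of 5 by limma between LU and HFD, against 17.1%, and 1 of 5 between LU and ND, against 41.1%. Between LU and HFD the limma p before adjustment was 0.0137 for Prf1 and 0.048 for Cd3g, and neither gene passed after adjustment. In each comparison the share of marker genes called was below that of all genes. With 5 genes 1 call is a share of 20%, so these shares are too coarse to set the markers apart.

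Prf1 read 1173, 1093 and 1421 on the LU liver arrays, 1090, 979.2 and 1101 on the HFD liver arrays, and 840.4, 677.3 and 733.2 on the ND liver arrays. All LU and HFD arrays lay above all ND arrays. Prf1 rose in LU against ND by 0.80 ± 0.13 (adjusted p = 0.00117), a call kept under all 19 alternatives. HFD was higher than ND by 0.41 ± 0.13 (adjusted p = 0.0363), and leaving out any of the 3 HFD arrays (adjusted p = 0.0607 to 0.098) or any of the 3 ND arrays (0.0503 to 0.111) lost this call. LU differed from HFD by 0.39 ± 0.13 (adjusted p = 0.0659), which 4 of 19 alternatives passed.

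The T cell receptor genes in liver stayed close to background. Cd3d read 215.1, 201.9 and 179.9 in LU, 221.3, 191.3 and 200 in HFD, and 205.6, 175.1 and 186.7 in ND, and its 3 differences were 0.04 to 0.11 (adjusted p = 0.631 to 0.898). Cd3g read 226.5, 186 and 189.8 in LU, 196.9, 185.7 and 189.7 in HFD, and 185.3, 189.7 and 184.5 in ND, with LU array 1 apart from the others. Its differences were 0.30 ± 0.13 for LU against HFD (adjusted p = 0.146), 0.17 ± 0.13 for LU against ND (adjusted p = 0.331) and -0.13 ± 0.13 for HFD against ND (adjusted p = 0.488).

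The 2 Cd3e probes disagreed in liver. ILMN_2784580, used for the gene, read 189.7, 181.1 and 179 in LU, 193, 178.7 and 197.7 in HFD, and 177, 171.7 and 180.3 in ND, and differed by 0.00 ± 0.10 between LU and HFD (adjusted p = 0.982). ILMN_1238847 read 189.4, 188 and 177.9 in LU, 171.1, 172.3 and 161 in HFD, and 170, 173.2 and 157.3 in ND. It was detected on all LU arrays and on no array of the other diets, so it entered the test only through LU, where it is high. Its p-values are therefore not independent of the detection filter. It was at least 1.09-fold higher in LU than in HFD (adjusted p over probes = 0.0118, where 17.2% of liver probes passed). Against ND it passed too (0.0233, where 37.7% passed), but its LU level did not clear the lowest signal detected in ND liver.

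Il7r in liver was detected by ILMN_2680827 alone, which read 230.4, 194.7 and 183.3 in LU, 204.1, 186.6 and 213.2 in HFD, and 171.3, 188.7 and 172.7 in ND. It was detected on all LU and HFD arrays and on 1 of 3 ND arrays, and the groups overlapped. The differences were 0.25 ± 0.18 for HFD against ND (adjusted p = 0.303; 95% interval -0.14 to 0.65), 0.15 ± 0.18 for LU against HFD (adjusted p = 0.605) and 0.40 ± 0.18 for LU against ND (adjusted p = 0.0967). The other Il7r probes read 116.5 to 176.8 and were not detected on any liver array. The 4 Cd6 probes read 120.6 to 166.5 there and were not detected either.

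Other immune genes did change in liver. Of 9 measured genes of T cell receptor signalling 6 rose and 1 fell under HFD against ND, a called share of 77.8% beside 30.3% of all genes, with a median of 0.59 beside 0.00 over all genes. Rasgrp1, an exchange factor of T cells, rose by 1.00 ± 0.08, Fyb by 0.80 ± 0.10 and Vav1 by 0.73 ± 0.09. Themis, a T cell adaptor that was not detected in ND liver, passed as well. Between LU and HFD 1 rose, the adaptor Lcp2 by 0.45 ± 0.13, and 8 did not pass, a called share of 11.1% that is below the 17.1% of all genes. Between LU and ND 6 rose and 2 fell, 88.9% beside 41.1%. Of 3 cytotoxic and NK genes, Ccl5 alone passed under HFD against ND, a share of 33.3% beside 30.3% of all genes, and rose by 0.79 ± 0.17, and in LU against ND Ccl5 rose by 1.21 ± 0.17 and Klrd1 was at least 1.19-fold higher. Of 7 interleukin 7 and common gamma chain genes 4 rose and 1 fell under HFD against ND, a share of 71.4% beside 30.3%, among them the cytokine Il15 by 0.64 ± 0.10.

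The pan-leukocyte genes in liver rose under HFD in 11 of 11, where 30.3% of all genes were called, over summed levels of 10410 to 13020 in LU, 10050 to 11440 in HFD and 6077 to 6522 in ND. Of 15 macrophage markers in liver 12 rose and 1 fell under HFD, over sums of 12370 to 16170 in LU, 14000 to 16300 in HFD and 9719 to 10720 in ND. Prf1 ran in the same direction as these lists in liver under HFD, and their part in the Prf1 result was not tested.

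Fitted over all 18 arrays together, 10764 genes, the diet effects on several markers differed between the tissues. For the HFD effect (HFD against ND, fat minus liver) 3 of 6 marker genes passed, where 31.4% of all genes did: Il7r by 3.03 ± 0.30 (adjusted p = 2.97e-06), Cd6 by 0.71 ± 0.19 (adjusted p = 0.0104) and Prf1 by -0.80 ± 0.21 (adjusted p = 0.00813). Prf1 was lower under HFD in fat and higher in liver. For the luteolin effect (LU against HFD, fat minus liver) 4 of 6 passed, where 15.6% of all genes did: Il7r by -1.27 ± 0.30 (adjusted p = 0.0103), Cd3g by -1.21 ± 0.21 (adjusted p = 0.00221), Cd3e by -1.08 ± 0.26 (adjusted p = 0.0115) and Cd6 by -0.59 ± 0.19 (adjusted p = 0.0466). The last was lost under 17 of 25 alternatives, with adjusted p of up to 0.104. It was lost without any 1 of the 3 HFD liver, 3 LU liver or 3 LU fat arrays, or without HFD fat array 2 (0.092) or 3 (0.104), ND fat array 2 (0.0519) or ND liver array 3 (0.0531). In the joint fit Cd6 is read from ILMN_3117602, Cd3e from ILMN_1238847 and Il7r from ILMN_2680827. Cd3d (-0.70 ± 0.31, adjusted p = 0.137) passed without HFD fat array 1 (0.0426), Prf1 (0.47 ± 0.21, adjusted p = 0.131) without LU liver array 3 (0.0452), and for the HFD effect Cd3g (0.45 ± 0.21, adjusted p = 0.121) without LU liver array 1 (0.0433).

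These differences between tissues depended on the probe. For Il7r the HFD effect passed on all 3 probes tested, where 24.7% of all probes did, at 3.03 on ILMN_2680827, 2.29 on ILMN_2659739 and 0.87 on ILMN_1237567, of which only the first was detected in liver. ILMN_2659739 and ILMN_1237567 entered the joint test only through HFD and LU fat, where they are high. The luteolin effect of Il7r was -1.27 on ILMN_2680827 and -1.28 on ILMN_2659739, both past the test over probes, where 11.3% of all probes passed, and -0.47 on ILMN_1237567 (adjusted p over probes = 0.158). For Cd6 no probe was detected on any liver array, so the liver side of its differences is background. The Cd6 probes entered the joint test through fat alone, where they are higher, so their p-values are not independent of the filter. The HFD effect of Cd6 was 0.71 on ILMN_3117602, 0.53 on ILMN_2769330 (adjusted p over probes = 0.0341) and 0.46 on ILMN_2769325 (0.142), and its luteolin effect passed over probes on ILMN_2769330 alone, at -0.95 (0.00326). For Cd3e the luteolin effect rests on ILMN_1238847, which was not detected on any HFD liver array, and the other probe, ILMN_2784580, gave -0.43 ± 0.19 (adjusted p over probes = 0.169). Without background correction the effects were smaller, with the luteolin effect at -0.43 for Cd3e and -0.50 for Cd3g and the HFD effect at 0.24 for Cd6.

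Levels of the markers also differed between fat and liver on the same diet. Counts were 5 of 6 called in LU, where 84.7% of all genes were called, 5 of 6 in HFD, against 85.3%, and 4 of 6 in ND, against 85.7%, so the markers are close to the rest of the array in this. On ILMN_2680827, which was detected on 1 of 3 ND liver arrays, Il7r was higher in fat by 3.17 ± 0.21 in LU, 4.43 ± 0.21 in HFD and 1.40 ± 0.21 in ND. The other Il7r probes were not detected in liver. ILMN_2659739 was higher in fat by at least 1.19-fold in LU and at least 2.91-fold in HFD, and in ND it was not detected in either tissue. ILMN_1237567 was at least 1.06-fold higher in LU and at least 1.36-fold in HFD, both past the test over probes, where 81.7% of all probes passed in LU and 82.5% in HFD, and differed by 0.00 ± 0.15 in ND (adjusted p over probes = 0.987), where 83.5% passed. Cd6, not detected on any liver array, was at least 1.41-fold higher in fat under HFD (adjusted p = 5.85e-08), and in LU and ND it passed the test but its level did not clear the lowest signal detected in liver. On ILMN_1238847 Cd3e was higher by 0.49 ± 0.18 in LU (adjusted p = 0.0194), by at least 2.09-fold in HFD and by at least 1.73-fold in ND. On ILMN_2784580 the difference was 0.08 ± 0.14 in LU (adjusted p over probes = 0.614) and 0.50 ± 0.14 in HFD (0.003), with at least 1.23-fold in ND (0.0028). The Cd3e call in LU was lost without LU liver array 3 (adjusted p = 0.052), LU fat array 1 (0.0579) or LU fat array 2 (0.0686).

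Cd3g was higher in fat under HFD by 0.79 ± 0.15 (adjusted p = 0.000119) and in ND by 0.35 ± 0.15 (adjusted p = 0.0398), and was lower in LU by 0.41 ± 0.15 (adjusted p = 0.0171), a direction that turned to 0.15 with median scaling. The Cd3g call in LU was lost without LU liver array 1 (0.126) or LU fat array 3 (0.0596), and that in ND without ND liver array 1 (0.118) or 3 (0.0657) or ND fat array 2 (0.0942) or 3 (0.124), and without background correction (0.0582). Cd3d did not pass in any diet, at -0.44 in LU, 0.26 in HFD and 0.40 in ND (adjusted p = 0.0704, 0.274 and 0.0999). It passed in LU without LU liver array 3 (0.0253) or HFD fat array 1 (0.0378), in HFD without HFD fat array 1 (0.0348) and in ND without ND liver array 1 (0.0325).

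Prf1 was lower in fat than in liver under HFD by 0.88 ± 0.15 (adjusted p = 3.21e-05) and in LU by 0.41 ± 0.15 (adjusted p = 0.0166). In ND its difference was -0.08 ± 0.15 (adjusted p = 0.6). With median scaling, which moved the median of all genes to 0.55 in LU, 0.51 in HFD and 0.61 in ND, against 0.11, 0.14 and 0.14 with quantile normalization, the Prf1 difference was 0.06 in LU and 0.54 in ND. The Prf1 call in LU was lost without LU liver array 3 (0.109) or LU fat array 2 (0.0572). Of 13 measured genes of T cell receptor signalling, 6 were higher in fat and 4 lower in LU. In HFD 7 were higher and 4 lower, and in ND 5 were higher and 2 lower. The called shares of 76.9% in LU, 84.6% in HFD and 53.8% in ND were each below those of all genes, 84.7%, 85.3% and 85.7%. Zap70, lower in fat in all 3 diets, differed by -4.31 in LU, -4.00 in HFD and -4.52 in ND. Its level thus did not follow the CD3 genes between the tissues, since these lay close to background in liver. What its probe reads there was not tested.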

How the data were processed

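Per the file headers, the deposited tables give each probe an average signal intensity and a detection p-value on every array. Arrays were made from 550 ng of total RNA, per the labels' protocols. GenomeStudio 2009.2 and R 2.4.1 are named in the submitters' processing notes. The authors' deposited log2 values, whose normalization is not given in the sources used here, served as an alternative.

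neqc of limma 3.58.1 (R 4.3.3, offset 16) corrected the background, quantile normalized the signals and took log2, within each tissue and, for tissue differences, over all arrays. A probe was kept if its detection p was under 0.05 on every array of 1 or more groups. Each gene is read from its named probe with the highest mean. Names come from the platform annotation, where 22883 probes have 1 gene, 13 several and 5825 none, and 22836 of the probes with 1 gene matched GRCm38.p6. limma's linear model with empirical Bayes moderation was fitted over all genes with Benjamini-Hochberg adjustment, and over all probes for single probes. The method was tested on simulated data. A gene not detected in a group has a lower bound as its fold.

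The marker genes and the other lists were chosen with earlier results of these data known. All genes of the list are named. From each other list up to 4 genes are named, those with the largest difference among called genes whose arrays did not overlap, or 2 of the brightest where none passed. The 5 genes most like Cd3e are named in each tissue, and in fat the 5 most like Il7r. Alternatives changed the background correction, normalization, detection filter, probes fitted, moderation, arrays fitted and pairing, and left out each array in turn. With all detected probes fitted, single marker genes were still read from their main probe, so that alternative varied the probe only for the counts.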

Additional observations from a re-analysis of the deposited data

Results flagged for a closer look

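Several diet effects on the marker genes differed between fat and liver by the test of the difference itself, in limma's fit over all 18 arrays. The HFD effect was larger in fat for Il7r by 3.03 ± 0.30 (log2 difference ± SE, adjusted p = 2.97e-06) and for Cd6 by 0.71 ± 0.19 (adjusted p = 0.0104), and ran the other way for Prf1, at -0.80 ± 0.21 (adjusted p = 0.00813). The luteolin effect differed, fat minus liver, for Cd3e by -1.08 ± 0.26 (adjusted p = 0.0115), for Cd3g by -1.21 ± 0.21 (adjusted p = 0.00221), for Il7r by -1.27 ± 0.30 (adjusted p = 0.0103) and for Cd6 by -0.59 ± 0.19 (adjusted p = 0.0466). No Cd6 probe was detected in liver, so the liver side of its differences is background, and the HFD effect of Cd6 was 0.46 on ILMN_2769325 (adjusted p over probes = 0.142). The Cd3e difference did not pass on the other probe, ILMN_2784580, at -0.43 (0.169), nor the luteolin effect of Il7r on ILMN_1237567, at -0.47 (0.158). Groups of 3 arrays were not tested for outlying arrays.

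A signal also appeared in a probe outside the tests. The fourth Il7r probe, ILMN_1255750, read 192.2, 189.2 and 186.7 in LU fat, 265.4, 245.1 and 222.3 in HFD fat (244.3 ± 21.6, SD, n = 3), and 172.6, 190.7 and 197.8 in ND fat. It was detected on 2 of 3 HFD arrays and on no LU or ND array, so it missed the detection filter, and all HFD arrays lay above all arrays of the other diets.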

How the results depend on the processing

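Of 63 differences of single marker genes, 34 were called, and 25 of these kept their direction and call under every alternative that tested the gene. A gene that the stricter detection filter dropped was untested there and is not counted as a lost call. Of the 29 not called, 11 passed under at least 1 alternative. A direction called on either side turned 3 times, each with median scaling between fat and liver: Prf1 in LU to 0.05783 and in ND to 0.5377, and Cd3g in LU to 0.146. Median scaling also left 3 marker genes called between fat and liver in LU in place of 5. In liver, LU against HFD had 1 marker gene called, in place of 0, without background correction, with the stricter detection filter, with all detected probes, with trend and robust moderation and with the authors' values. HFD against ND in liver had 0, in place of 1, without the detection filter, and LU against ND in liver had 2, in place of 1, with all detected probes. With detection p under 0.01 required on all arrays, LU against HFD in fat had 3 in place of 5, the HFD effect 1 in place of 3, the luteolin effect 0 in place of 4, and fat against liver 1 in LU, 1 in HFD and 0 in ND, with 5617, 5661 and 5679 genes called over all genes. That filter tests fewer genes by construction. Without background correction, the called differences of Cd3d, Cd3g and Cd6 between diets in fat were smaller and kept their calls. Over the alternatives Cd6 ranged over 0.3862 to 1.135 for HFD against ND and Cd3g over -0.9927 to -0.4137 for LU against HFD.

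Leaving out 1 array gave marker gene counts of 0 to 1 for HFD against ND in liver (0 without any 1 of the 6 arrays compared), and 3 to 6 for fat against liver in LU (3 without LU fat array 2). Over all genes the range was 749 to 1564 for LU against HFD in liver, lower without any 1 of the 6 arrays compared. It was 2127 to 3824 for LU against HFD in fat (2127 without LU fat array 2), 2239 to 3522 for LU against ND in fat (2239 without LU fat array 1) and 1118 to 1892 for the luteolin effect (1118 without LU fat array 2). The cause of these changes was not tested.

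The share of calls that were higher moved by over 10 percentage points with median scaling, to 82.7% from 59.1% for HFD against ND in liver, 29.4% from 49.3% for LU against HFD in liver and 70.1% from 57.6% for LU against ND in liver. It moved to 27.4% from 42.4% for the HFD effect, 61.6% from 46.1% for the luteolin effect, and between fat and liver to 71.9% from 54.8% in LU, 69.5% from 55% in HFD and 73.1% from 55.4% in ND. Deviations of arrays with the same replicate number correlated at -0.155 to 0.192, and at -0.0823 to 0.135 between fat and liver. The numbers were not taken as pairs. Unlike numbers were not compared, so this cannot show that pairs are absent. With the number as a replicate block, marker gene counts equalled those without it in all 11 comparisons, such as 5 for LU against HFD in fat, and all-gene counts were 4366 in place of 4653 for HFD against ND in fat and 1122 in place of 1526 for LU against HFD in liver. Signals of Cd4, the CD3 genes in liver and 3 of the Il7r probes there were at or near background, which limits what they can show.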
